A study of Mus musculus with 6 samples.

Results

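The miR-26 family is a pair of near-identical guide miRNAs, miR-26a and miR-26b, made from 3 hairpins that sit inside genes of the Ctdsp phosphatase group. Its 5 mature arms, mmu-miR-26a-5p, mmu-miR-26b-5p, mmu-miR-26b-3p, mmu-miR-26a-1-3p and mmu-miR-26a-2-3p, were followed among 1081 miRNA entries measured by small RNA sequencing of mouse kidney inner medulla. The arms were chosen by name, with the normalized reads of both genotypes in these libraries already known. Differences between genotypes in these arms are therefore described and not tested. The tested animals were 1-month-old DicerAQP2Cre+ mice (3 libraries), in which Dicer1 is deleted in cells expressing aquaporin-2, a water channel that marks principal cells of the collecting duct. Small RNA libraries do not measure Dicer1 mRNA, so the deletion could not be checked. They were compared with 1-month-old mice labelled as controls (3 libraries), whose alleles the labels do not spell out. Each library came from the whole inner medulla, which also holds interstitial, loop and vessel cells in which the AQP2Cre driver is not meant to act. In such bulk tissue, fewer cells of a type and less RNA per cell cannot be told apart.

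Dicer cuts the loop from a precursor hairpin and leaves a short duplex, of which an Argonaute protein keeps mostly one strand, the guide, while the other, the passenger, is degraded. The guide recognises messenger RNAs mainly through its seed, the bases near its 5′ end. miR-26 is widely expressed in differentiated tissues, and its described targets include Ezh2, the histone methyltransferase of Polycomb repressive complex 2. The host genes Ctdspl, Ctdsp2 and Ctdsp1 encode small phosphatases related to that of the RNA polymerase II C-terminal domain.

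The mature sequences show which arms can share targets and which can be counted apart. They are given 5′ to 3′ from RefSeq (GRCm38.p6), with the seed, bases 2 to 8, in capitals.
mmu-miR-26a-5p: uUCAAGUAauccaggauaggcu
mmu-miR-26b-5p: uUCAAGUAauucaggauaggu
mmu-miR-26b-3p: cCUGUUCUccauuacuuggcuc
mmu-miR-26a-2-3p: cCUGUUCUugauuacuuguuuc
mmu-miR-26a-1-3p: cCUAUUCUugguuacuugcacg

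Both guides, the 5p arms, carry the seed UCAAGUA. Counted from the 5′ end, miR-26b-5p differed from miR-26a-5p by C11U and C21U, both outside the seed, and by lacking the last base. Among the passengers, miR-26a-2-3p and miR-26b-3p shared the seed CUGUUCU and were identical at 18 of 22 positions, whereas miR-26a-1-3p differed from miR-26a-2-3p by A4G within the seed and by 5 substitutions outside it (6 in all). A search of 1679 mouse mature miRNA names found no other with the seed UCAAGUA. miR-7039-3p and miR-6932-3p shared CUGUUCU, but neither exceeded 0.968 normalized reads in any library.

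The 3 hairpins are shown because they show why miR-26a-5p reads cannot be assigned to a locus. Capitals mark the mature arms, and positions are GRCm38.p6, all on the plus strand.
Mir26a-1, chr9:119031796-119031885: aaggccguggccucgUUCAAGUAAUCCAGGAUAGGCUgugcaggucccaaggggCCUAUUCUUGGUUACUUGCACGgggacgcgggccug
Mir26a-2, chr10:126995530-126995613: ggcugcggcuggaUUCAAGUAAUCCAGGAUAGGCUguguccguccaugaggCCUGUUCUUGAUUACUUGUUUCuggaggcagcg
Mir26b, chr1:74394310-74394394: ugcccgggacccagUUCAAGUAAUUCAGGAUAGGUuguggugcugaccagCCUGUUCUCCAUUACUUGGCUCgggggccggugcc

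In the GRCm38 annotation Mir26a-1 lies in intron 5 of Ctdspl, Mir26a-2 in intron 5 of Ctdsp2 and Mir26b in intron 4 of Ctdsp1, counted in the protein-coding transcript with the most exons and each on the strand of its host. For Mir26a-2 a pair of shorter Ctdsp2 transcripts start at the last base of the hairpin. Mir26a-1 and Mir26a-2 give the same 5p arm, so the 1 entry for miR-26a-5p holds the reads of both, and only the 3p arms tell the 2 loci apart. The bases between the arms numbered 17 in Mir26a-1, 16 in Mir26a-2 and 15 in Mir26b.

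Values below are normalized reads, in which the authors scaled the counts of a library by 1 common size factor. The columns taken as DicerAQP2Cre+ are headed CK01 to CK03 in the deposited table, so every direction below rests on that reading of their names. Whole reads could be recovered from them, and totals ranged from 2934851 to 7614853 reads per library. First principal component scores (46.1% of the variance) were 7.84, 12.5 and 2.33 in DicerAQP2Cre+ replicates 1 to 3 and -7.90 to -7.10 in controls. On the second principal component (23.1% of the variance) DicerAQP2Cre+ replicate 3 scored -12.5 and the other 5 libraries 0.874 to 5.10. Group values that DicerAQP2Cre+ replicate 3 moves are also given without it, an alternative chosen after seeing the data. Per-entry tests used limma on log2(value + 1) for 461 entries with a mean of at least 5 normalized reads. Calls required a p under 0.05 after Benjamini-Hochberg adjustment over all of them, and log2 fold changes are DicerAQP2Cre+ over control on that scale, with their standard error.

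miR-26a-5p held nearly all reads of the family. It stood at 96301, 83785 and 89552 normalized reads in DicerAQP2Cre+ replicates 1 to 3, against 135639, 153443 and 141671 in control replicates 1 to 3. The groups did not overlap: the highest DicerAQP2Cre+ library lay below the lowest control library. The means were 89879 ± 6264 in DicerAQP2Cre+ samples and 143584 ± 9055 in controls (SD, n = 3 each), a log2 fold change of -0.68 ± 0.17, or 1.60-fold lower. As a share of all miRNA reads it held 1.57 ± 0.129% in DicerAQP2Cre+ samples and 2.91 ± 0.278% in controls (SD, n = 3 each). These shares also move with miR-181a-5p, the most abundant entry, whose log2 fold change of 0.61 ± 0.18 did not pass (limma adjusted p = 0.0641). By mean level miR-26a-5p ranked 8 of 1081 entries, and its rank within a library ranged from 7 to 9, so its place among the most abundant miRNAs was nearly the same in both genotypes.

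**Figure D1:**
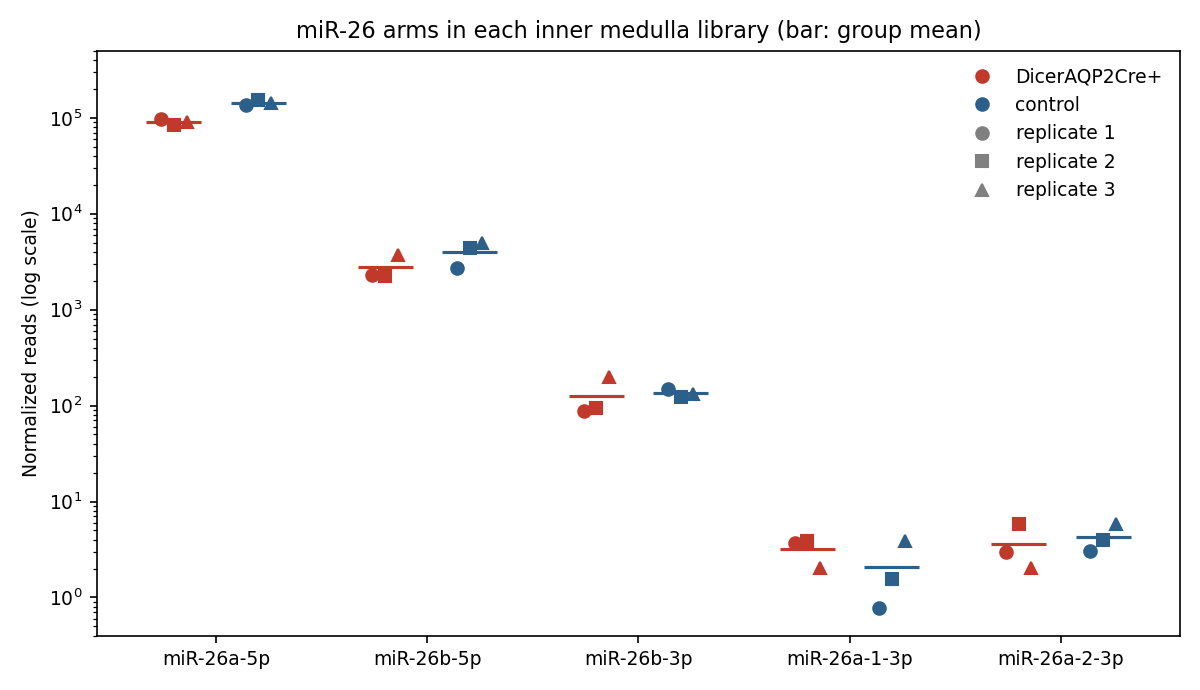
Normalized reads (log scale) of the 5 miR-26 arms in each library, DicerAQP2Cre+ in red and control in blue, with the symbol giving the replicate and the bar the group mean. The genotypes are separate for miR-26a-5p and overlap for the other 4 arms, and the levels run from at least 83785 reads for miR-26a-5p to under 6 for the passenger arms of miR-26a.

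miR-26b-5p, the second guide, was far less abundant and spread more widely. It stood at 2287, 2267 and 3753 normalized reads in DicerAQP2Cre+ replicates 1 to 3, against 2722, 4407 and 4957 in control replicates 1 to 3. The groups overlapped, because DicerAQP2Cre+ replicate 3 was above control replicate 1. The means were 2769 ± 852 in DicerAQP2Cre+ samples and 4029 ± 1165 in controls (SD, n = 3 each), a log2 fold change of -0.54 ± 0.28. Without DicerAQP2Cre+ replicate 3 the log2 fold change was -0.78, and limma called it there, where 13.6% of tested entries were called lower. Without control replicate 1 it was -0.80 and not called. miR-26b-5p was called in 2 of 21 alternative settings, limma and edgeR without DicerAQP2Cre+ replicate 3.

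miR-26b-3p is the passenger of the same hairpin. It had 88.8, 94.1 and 199 normalized reads in DicerAQP2Cre+ replicates 1 to 3, against 150, 123 and 131 in control replicates 1 to 3. The highest and the lowest library were both DicerAQP2Cre+, with all control libraries between them. The log2 fold change was -0.18 ± 0.32. Its error range overlapped that of its guide's -0.54 ± 0.28, and the difference between the arms was not tested. The log2 fold change of miR-26b-3p was -0.55 without DicerAQP2Cre+ replicate 3 but 0.03 without DicerAQP2Cre+ replicate 1. Recovered reads for this arm numbered only 48 in DicerAQP2Cre+ replicate 2, the shallowest library, and 120 to 195 in the others.

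The passengers of miR-26a were at the limit of detection. miR-26a-1-3p had 5, 2 and 2 recovered reads in DicerAQP2Cre+ replicates 1 to 3, against 1, 2 and 4 in control replicates 1 to 3. miR-26a-2-3p had 4, 3 and 2 recovered reads in DicerAQP2Cre+ replicates 1 to 3, against 4, 5 and 6 in control replicates 1 to 3. Summed over 3 libraries, these were 9 reads in DicerAQP2Cre+ and 7 in control for miR-26a-1-3p, and 9 in DicerAQP2Cre+ and 15 in control for miR-26a-2-3p. Both arms averaged under 5 normalized reads, so they were below the filter, and no difference between genotypes was detectable at this depth. Both were nevertheless present in all 6 libraries, so reads specific to each of the 2 miR-26a loci were found in both genotypes.

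Of the 5 arms, 3 passed the filter on low values and 1 of these, miR-26a-5p, was called lower, where 4.99% of all tested entries were called lower. It was also the 1 tested arm whose groups did not overlap in that direction, beside 18.0% of all tested entries. The call follows from the contrast with which the arms were chosen, so nothing is read from it. All 3 tested arms had log2 fold changes below 0, with a median of -0.54, where the median over all tested entries was -0.01 and 50.5% lay below 0. Among the 23 entries called lower, whose folds ran up to 3.35, the 1.60-fold of miR-26a-5p was the smallest, while its level was the second highest. It held 40.8% of the normalized reads of those 23 entries in DicerAQP2Cre+ samples and 33.3% in controls. Of the 10 most abundant entries, 2 were called, miR-26a-5p and miR-30d-5p.

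**Figure D2:**
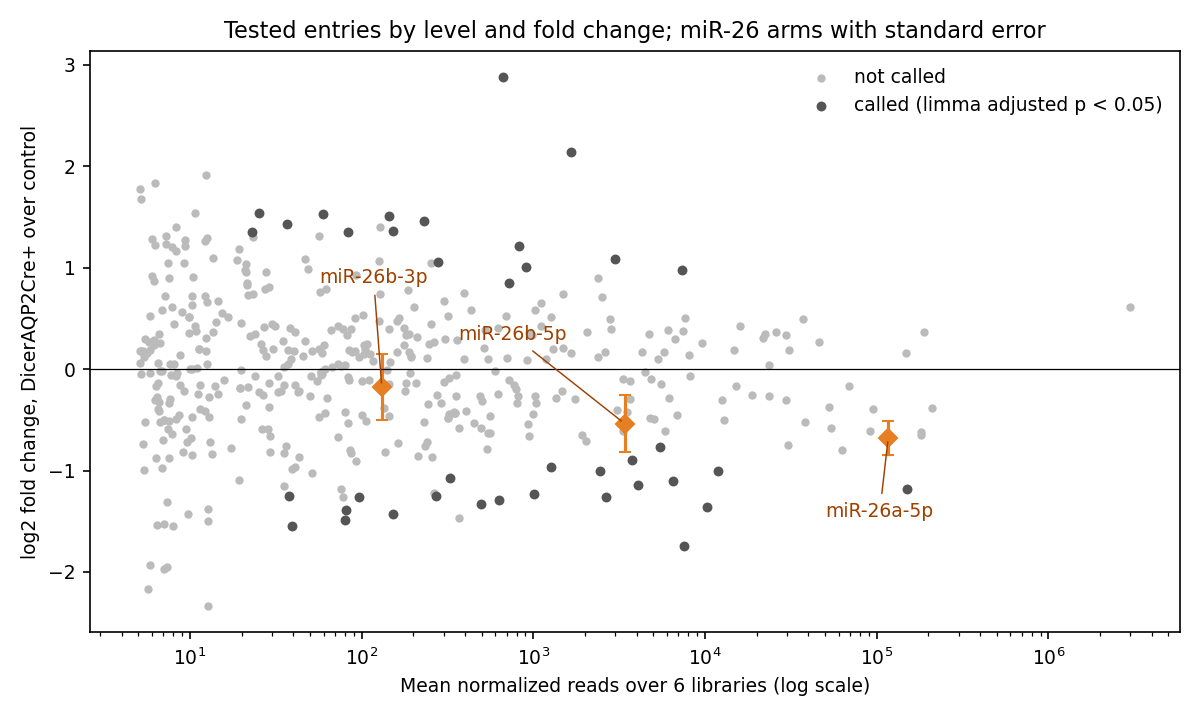
Each point is 1 of 461 tested entries, by mean normalized reads (log scale) and log2 fold change, DicerAQP2Cre+ over control, with dark points called by limma. Orange diamonds with standard errors are miR-26b-3p, miR-26b-5p and miR-26a-5p, at -0.18, -0.54 and -0.68, and miR-26a-5p lies near the right edge, among the most abundant entries and close to 0 for a called entry.

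The call on miR-26a-5p did not hold under every choice of libraries, while its log2 fold change moved little. The call was lost without DicerAQP2Cre+ replicate 2 (log2 fold change -0.63), without control replicate 1 (-0.72), without control replicate 2 (-0.63) and without control replicate 3 (-0.69), and it held without DicerAQP2Cre+ replicate 1 (-0.73) and without DicerAQP2Cre+ replicate 3 (-0.67). In edgeR, leaving out 1 library at a time lost the call in 5 of 6 fits, and it held only without DicerAQP2Cre+ replicate 3. Without control replicate 2 or 3, limma called 0 entries of any kind (unadjusted p under 0.05 in 43 lower and 40 higher without replicate 2, and in 47 lower and 45 higher without replicate 3; edgeR also called 0). With library totals set equal in place of the deposited size factors, the median of all tested entries moved to -0.21 and calls to 47 lower and 14 higher, so that higher entries were 23.0% of calls in place of 41.0%. The log2 fold change of miR-26a-5p was then -0.89, which is 0.68 below that median, where with the deposited factors it was -0.66 relative to the median.

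**Figure D3:**
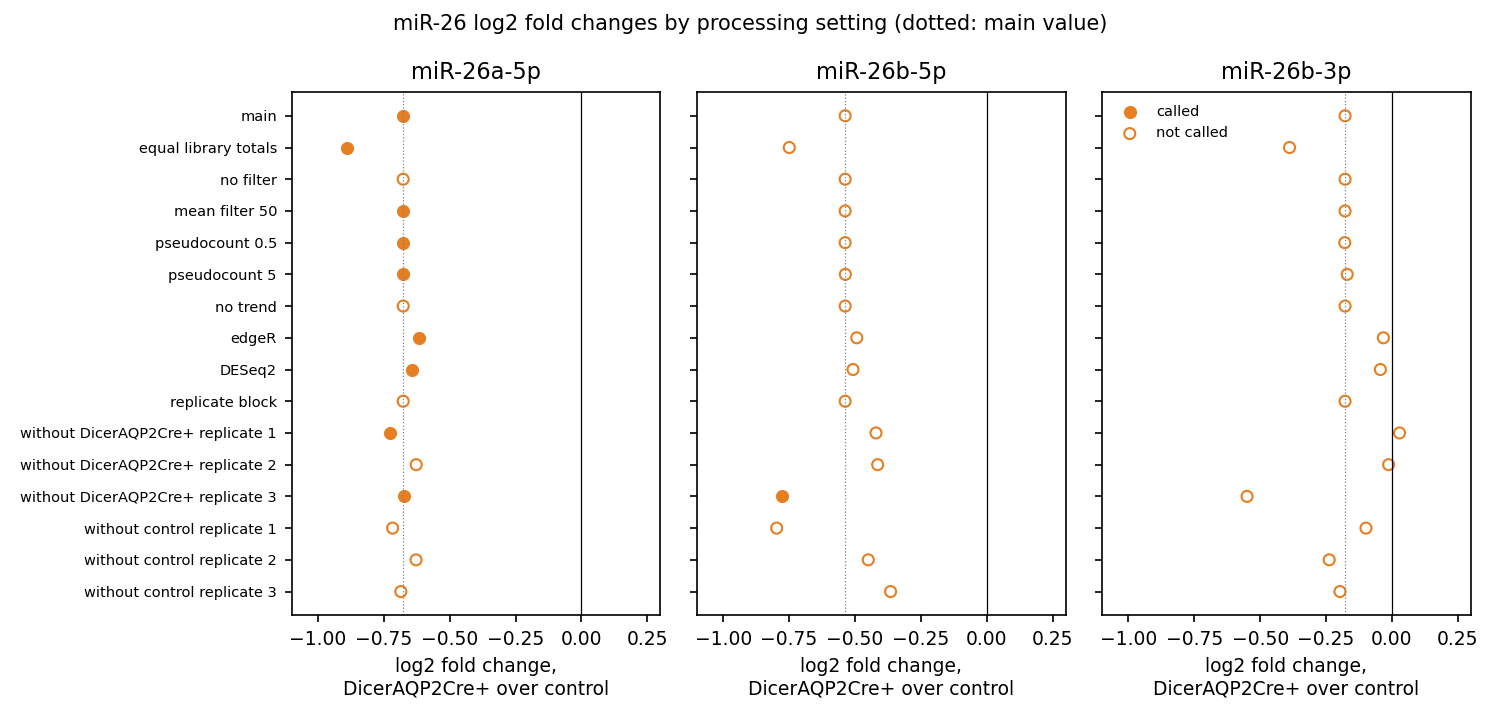
Log2 fold change, DicerAQP2Cre+ over control, of miR-26a-5p, miR-26b-5p and miR-26b-3p under each planned setting, with filled points called and open points not called. miR-26a-5p stays between -0.89 and -0.62, whereas miR-26b-3p runs from -0.55 to 0.03 as single libraries are left out.

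Between control animals miR-26b-5p spread more widely than miR-26a-5p, while among DicerAQP2Cre+ animals the order of the guides depended on DicerAQP2Cre+ replicate 3. The coefficient of variation of miR-26a-5p was 6.97% in DicerAQP2Cre+ samples and 6.31% in controls, against 30.8% in DicerAQP2Cre+ samples and 28.9% in controls for miR-26b-5p (n = 3 each). Without that library it was 9.83% for miR-26a-5p and 0.623% for miR-26b-5p in the other 2 DicerAQP2Cre+ samples, so the order of the guides turned in that genotype. In controls miR-26b-5p was lowest in replicate 1, at 2722 against 4407 and 4957 in replicates 2 and 3. The control spread without control replicate 1 is not given. Among 95 tested entries averaging at least 1000 reads, a level chosen after the values were seen, the within-genotype SD of miR-26a-5p on the log2 scale, 0.0955, was the fifth smallest, and that of miR-26b-5p, 0.438, ranked 78. Without DicerAQP2Cre+ replicate 3 miR-26a-5p ranked 18 and miR-26b-5p ranked 88 of the same 95 entries. miR-26b-5p had 1157 to 5607 recovered reads per library and miR-26a-5p 42756 to 195204.

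Summed over both guides, reads with the seed UCAAGUA stood at 98588, 86052 and 93306 in DicerAQP2Cre+ replicates 1 to 3, against 138360, 157850 and 146628 in control replicates 1 to 3. The groups did not overlap, and the difference in means, -54964 reads for DicerAQP2Cre+ minus control, was 97.7% miR-26a-5p. That difference was -55293 reads without DicerAQP2Cre+ replicate 3, of which 96.8% was miR-26a-5p. miR-26b-5p made up 2.99 ± 0.906% of these guide reads in DicerAQP2Cre+ samples and 2.71 ± 0.71% in controls (SD, n = 3 each), a difference smaller than the spread between libraries. The DicerAQP2Cre+ share was 2.48 ± 0.223% (SD, n = 2) when DicerAQP2Cre+ replicate 3 was left out, below the control mean in place of above it.

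Ratios between arms within a library do not rest on the genotype contrast and were tested over all 6 libraries by exact two-sided paired permutation tests, 4 in all, which cannot give a p below 0.03125. The reads were known when the arms were chosen. A log2 ratio with the same sign in all 6 libraries gives this smallest p whatever its spread, so no conclusion is drawn from a p of 0.03125. miR-26a-5p exceeded miR-26b-5p in 6 of 6 libraries, by 42.1, 37.0 and 23.9-fold in DicerAQP2Cre+ replicates 1 to 3 and 49.8, 34.8 and 28.6-fold in control replicates 1 to 3 (geometric mean 35.0-fold, exact permutation p = 0.03125, adjusted over the 4 tests p = 0.0417). Adapter ligation differs between miRNA sequences, so such a ratio between miRNAs also carries the preferences of the library preparation.

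Guide arms exceeded passenger arms in every library for both miRNAs, with the 2 miR-26a loci pooled. A guide is the arm that is mostly kept, so this direction was fixed in advance. Nothing is read from the p-values of the 2 guide over passenger ratios. miR-26b-5p exceeded miR-26b-3p by 25.8, 24.1 and 18.8-fold in DicerAQP2Cre+ replicates 1 to 3 and by 18.1, 35.7 and 37.9-fold in control replicates 1 to 3 (geometric mean 25.5-fold, exact permutation p = 0.03125, adjusted p = 0.0417). The DicerAQP2Cre+ ratios lay within the range of the control ratios. miR-26a-5p exceeded the sum of its 2 passengers by a geometric mean of 15714-fold on the value + 1 scale, again in 6 of 6 libraries (exact permutation p = 0.03125, adjusted p = 0.0417). With so few passenger reads this fold depends on the pseudocount, and without it the log2 ratio was 14.2 in place of 13.9. Between the passengers of miR-26a, miR-26a-2-3p exceeded miR-26a-1-3p in 4 of 6 libraries. The difference did not pass (1.39-fold on the value + 1 scale, exact permutation p = 0.125, adjusted p = 0.125). That log2 ratio, 0.48, also moved with the pseudocount, to 0.69 without it and 0.23 with a pseudocount of 5. The order of levels as measured was miR-26a-5p, miR-26b-5p, miR-26b-3p and then the miR-26a passengers, which did not differ from each other beyond their spread.

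The entries whose pattern over the 6 libraries was most like each guide were named by Pearson correlation of log2(value + 1), among 259 entries averaging at least 50 reads, as a description in which all entries share the same libraries. For miR-26a-5p these were miR-30c-5p (0.98), miR-125b-5p (0.98), miR-148a-3p (0.97), miR-30d-3p (0.97) and miR-30c-1-3p (0.97). All but miR-125b-5p were called lower. miR-125b-5p had 17896, 16747 and 17095 reads in DicerAQP2Cre+ replicates 1 to 3 and 20452, 20310 and 20888 in control replicates 1 to 3, and its log2 fold change of -0.25 ± 0.17 did not pass (limma adjusted p = 0.347). With each genotype centred on its own mean, the correlations with miR-26a-5p were lower, from 0.24 for miR-30d-3p to 0.87 for miR-30c-1-3p. Without DicerAQP2Cre+ replicate 3 the correlations of these 5 entries were 0.97 to 0.98, but only miR-30c-1-3p and, again nearest, miR-30c-5p were still among the 5 nearest, and with genotypes centred that of miR-30d-3p was 0.77.

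miR-26b-5p was most like a different group, miR-99a-5p (0.96), miR-30e-3p (0.96), miR-30a-3p (0.95), miR-22-3p (0.94) and miR-186-5p (0.94), none of which was called. With each genotype centred on its own mean these correlations were 0.90 to 0.96. miR-22-3p, for example, had 21478, 21951 and 54355 reads in DicerAQP2Cre+ replicates 1 to 3, against 30823, 45182 and 54321 in control replicates 1 to 3. Like miR-26b-5p, these entries were highest within DicerAQP2Cre+ in replicate 3, the library that stood apart, and lowest within the controls in replicate 1. The 2 guides correlated with each other at 0.64, or 0.31 with each genotype centred, and miR-26b-5p ranked 74 among the entries most like miR-26a-5p. When DicerAQP2Cre+ replicate 3 was left out, the 5 entries correlated with miR-26b-5p at 0.95 to 0.99, with miR-99a-5p and miR-22-3p still among its 5 nearest. The guides then correlated with each other at 0.84, or 0.44 with each genotype centred, and miR-26b-5p ranked 67.

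**Figure D4:**
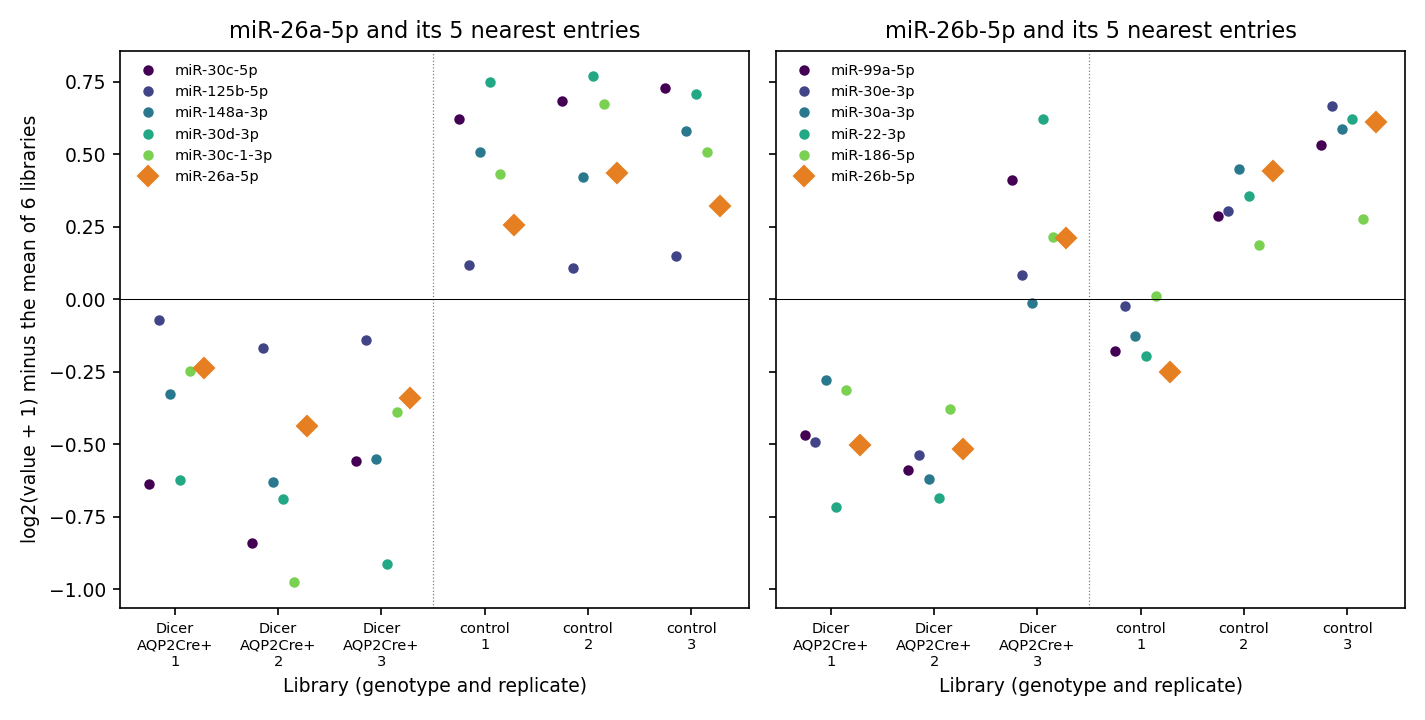
Log2(value + 1) minus the mean of the 6 libraries for each guide (orange diamonds) and its 5 nearest entries (circles), DicerAQP2Cre+ libraries left of the dotted line and control libraries right of it. The left panel, miR-26a-5p, separates the genotypes for every entry, while in the right panel, miR-26b-5p, DicerAQP2Cre+ replicate 3 lies above control replicate 1 for miR-26b-5p and all 5 neighbours.

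The guides of the miR-30 and miR-148 families, lists chosen with earlier results of these data known, are given beside miR-26 for scale. Of 5 miR-30 guides, miR-30b-5p, miR-30c-5p, miR-30d-5p and miR-30e-5p were called lower and miR-30a-5p was not, 4 of 5 beside 4.99% of all tested entries, with log2 fold changes from -1.36 to -0.76 and a median of -1.15. Of the 3 guides of the miR-148 family 1 was called lower beside the same 4.99%, miR-148a-3p, with 1832, 1485 and 1569 reads in DicerAQP2Cre+ replicates 1 to 3 against 3268, 3081 and 3441 in control replicates 1 to 3. Its log2 fold change was -1.01 ± 0.19 (limma adjusted p = 0.0141), while miR-148b-3p (-0.34) and miR-152-3p (-0.73) did not pass. Without DicerAQP2Cre+ replicate 3, where 13.6% of tested entries were called lower, 5 of 5 miR-30 guides were called, with a median of -1.16, and miR-152-3p was called too (-0.76). The -0.68 of miR-26a-5p was thus closer to 0 than that of every miR-30 guide, and the differences between families were not tested.

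Other miRNAs described as repressing Ezh2 were listed, with earlier results of these data known, to set miR-26 beside miRNAs sharing that target. Of 13 tested entries on the Ezh2 list, which holds let-7, miR-98, miR-101, miR-138, miR-124 and miR-214, 0 were called lower and 1 was called higher, where 4.99% of all tested entries were called lower and 3.47% higher. Their median log2 fold change was 0.16. The most abundant, let-7c-5p, had 196190, 225406 and 212269 reads in DicerAQP2Cre+ replicates 1 to 3 against 151483, 180549 and 159580 in control replicates 1 to 3, and did not pass (0.37 ± 0.17, limma adjusted p = 0.192). let-7b-5p did not pass either (0.16 ± 0.18, limma adjusted p = 0.619), and miR-101a-3p, which represses Ezh2 in several tumours, had a log2 fold change of 0.12 ± 0.29.

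The 1 higher call on that list was miR-214-3p. It rose to 3941, 3200 and 1155 reads in DicerAQP2Cre+ replicates 1 to 3, against 551, 735 and 422 in control replicates 1 to 3, or 2.14 ± 0.41 on the log2 scale (adjusted p = 0.0148 in limma). DicerAQP2Cre+ replicate 3 was the lowest of its group but above every control library. Without it the log2 fold change was 2.68, and on the same list let-7f-5p was called lower (-0.63), giving 1 lower and 1 higher call of 13, beside 13.6% and 9.41% of tested entries.

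Markers of several cell types differed between genotypes as well, beside 4.99% of all tested entries called lower and 3.47% called higher. The lists were chosen with earlier results of these data known, so the counts are descriptions. The 5 epithelial markers of the miR-200 family, miR-200b-3p, miR-200c-3p, miR-200a-3p, miR-429-3p and miR-141-3p, summed to 7133 to 10776 reads in DicerAQP2Cre+ libraries and 16704 to 17708 in control libraries, and all 5 were called lower. Of the 7 stromal markers, miR-214-3p and miR-145a-5p were called higher and miR-143-3p, the most abundant, was not. The stromal sum was 27688 to 40054 in DicerAQP2Cre+ libraries and 23350 to 24645 in control libraries. Of 2 tested cortical tubule markers miR-194-5p was called lower and miR-192-5p was not, with sums of 627 to 1131 in DicerAQP2Cre+ libraries and 1277 to 1340 in control libraries. Of 2 tested neural entries miR-9-5p was called lower and miR-128-3p was not, with sums of 366 to 451 in DicerAQP2Cre+ libraries and 832 to 1027 in control libraries. None of these 4 pairs of sums overlapped. For single tested entries, 18.0% did not overlap in the lower direction. The stromal sum lay in the higher direction, for which no such share is given.

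Among 5 tested leukocyte, 2 endothelial, 2 erythroid and 1 striated muscle entries 0 were called by limma, and the sums overlapped. The leukocyte sum, 17099 to 39961 in DicerAQP2Cre+ libraries and 13417 to 36701 in control libraries, was mostly miR-150-5p, followed by miR-342-3p. It hid miR-155-5p, which had 112, 141 and 407 reads in DicerAQP2Cre+ replicates 1 to 3 against 468, 551 and 536 in control replicates 1 to 3. The groups of miR-155-5p did not overlap, and its log2 fold change of -1.47 ± 0.41 did not pass (limma adjusted p = 0.0512), while the other 4 tested leukocyte entries lay above 0. The endothelial entries were miR-126a-3p (-0.15) and miR-126a-5p (-0.25), the erythroid ones miR-451a (-0.35) and the joined entry of miR-486a-5p and miR-486b-5p (-0.40), and the muscle one miR-133a-3p (-0.15). The erythroid sum was nearly all that joined entry, since miR-451a had only 11.8 to 31.0 reads per library. No listed marker in the table was at 0 in all libraries.

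Without DicerAQP2Cre+ replicate 3, where 13.6% of tested entries were called lower and 9.41% higher, the epithelial sum was 7133 to 7977 in DicerAQP2Cre+ libraries with 5 of 5 called lower. The stromal sum was then 35731 to 40054 in DicerAQP2Cre+ libraries, with 4 of 7 called higher. Both cortical tubule markers were called lower, with a sum of 627 to 841 in DicerAQP2Cre+ libraries, and the neural count and range were as with all libraries. miR-155-5p was called lower there (-2.03) and miR-223-3p, a myeloid miRNA, higher (1.64). In controls miR-223-3p was close to the limit of detection. It had 11.8 and 19.6 reads in DicerAQP2Cre+ replicates 1 and 2 against 5.38, 4.72 and 2.90 in control replicates 1 to 3. The leukocyte sum was 17099 to 20752 in DicerAQP2Cre+ libraries and still within the control range. The endothelial sum, 830 to 903 in DicerAQP2Cre+ libraries against 961 to 1229 in control libraries, no longer overlapped. Nor did the erythroid sum, 66039 to 78669 in DicerAQP2Cre+ libraries against 84625 to 147223 in control libraries, which was nearly all the joined miR-486 entry. Neither list had a call. With fewer DicerAQP2Cre+ libraries such a separation is easier to reach. No share of all tested entries is given for it, so nothing is read from these 2 sums. The part of these cell types in the lower level of miR-26a-5p was not tested.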

How the data were processed

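Total RNA from inner medulla was made into TruSeq small-RNA libraries, per the labels' protocols. The authors deposited a normalized signal for each miRNA: its reads over a size factor common to the library. FastQC 0.11.3, DESeq2 and the mm9 build appear in the submitters' processing notes. Aligner, counter and miRNA annotation: not given in the sources used here. In every column 100% of the values were whole multiples of its smallest value within 0.01 read, which gave the recovered reads. A library with 0 reads allows up to 3 reads, or 2.22 to 5.88 normalized reads. Floors cover counting error only. Columns CK01 to CK03 were read as DicerAQP2Cre+ replicates 1 to 3, an inference from their names on which every direction rests.

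The main fit was limma 3.58.1 (R 4.3.3) with a mean-variance trend, no replicate block and a pseudocount of 1, two-sided, after a mean filter of 5 that left out 620 entries. On the recovered reads, edgeR 4.0.16 (quasi-likelihood, TMM) called 23 lower and 19 higher and DESeq2 1.42.0 called 31 lower and 29 higher; both called 1 of the 3 tested miR-26 arms, miR-26a-5p. The main limma, edgeR and DESeq2 fits were run on simulated data with 1 common dispersion, and the other settings were not. The design describes separate mice, so p-values include differences between animals.

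Members and lists were chosen with earlier results of these data known. The rule for named entries covered the 5 arms, the 5 entries most correlated with each guide, entries sharing a member's seed, and, from each list, called entries and the 2 most abundant; miR-101a-3p, miR-152-3p, miR-155-5p, miR-223-3p, let-7f-5p and miR-181a-5p are outside this rule and were chosen after their values were seen. The result of 1 further list is not reported here. Mature sequences were matched by name for 916 of 1081 entries. GRCm38 was used for sequences and hosts only, and no value was joined by coordinate.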

Additional observations from a re-analysis of the deposited data

How the results depend on the processing

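All 3 tested arms kept log2 fold changes below 0 under every planned change of scaling, filter, pseudocount, trend and tool. That of miR-26a-5p moved to -0.89 with equal library totals. Leaving out 1 library each gave -0.73 to -0.63 for miR-26a-5p, -0.80 to -0.36 for miR-26b-5p and -0.55 to 0.03 for miR-26b-3p. In edgeR, a check added after seeing the data, the same ranges were -0.68 to -0.59, -0.73 to -0.31 and -0.48 to 0.18, so the sign of miR-26b-3p was not stable. It was reversed in limma without DicerAQP2Cre+ replicate 1 (0.0289), and in edgeR without DicerAQP2Cre+ replicate 1 (0.18), without DicerAQP2Cre+ replicate 2 (0.10) and without control replicate 1 (0.0409). The call on miR-26a-5p was also lost with no filter, without a trend and in 5 of 6 edgeR fits that left out 1 library, and was made in 9 of 21 alternative settings. Nothing in the labels pairs samples by replicate number, and same-numbered samples did not deviate together (correlations -0.06, 0.01 and 0.06); with that number as a block, limma called 18 entries lower and 14 higher, not including miR-26a-5p.

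Against 23 entries lower and 16 higher, equal totals gave 47 lower, no trend gave 11 lower and 7 higher, and DESeq2 gave 29 higher. Leaving out 1 library gave 0 to 62 lower and 0 to 43 higher in limma (0 without control replicate 2 or 3, 62 and 43 without DicerAQP2Cre+ replicate 3) and 0 to 51 lower and 0 to 67 higher in edgeR (0 of either without control replicate 2 or 3, 51 and 67 without DicerAQP2Cre+ replicate 3, 6 lower and 8 higher without DicerAQP2Cre+ replicate 2, 12 lower without control replicate 1). The cause was not tested, and fewer samples entered each such fit. With 5 libraries the paired permutation test cannot go below 0.0625, and mean log2 ratios ranged over 5.03 to 5.24 for miR-26a-5p over miR-26b-5p, 4.56 to 4.77 for miR-26b-5p over miR-26b-3p, and 13.8 to 14.1 for miR-26a-5p over its passengers. Depth limits the miR-26a passengers: at 1 to 6 reads per library, neither their genotype difference nor the share of each miR-26a locus could be measured.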
